A study of Mus musculus with 2 samples.

Results

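The 2 mature arms of the mouse miRNA miR-21a, miR-21a-5p and miR-21a-3p, were followed in liver RNA from mice with and without hepatic Hnf4a. They are 2 of the 610 features of the array and carry the mature-sequence accessions MIMAT0000530 (5p) and MIMAT0004628 (3p). The members were selected on their accessions with the values on these same arrays already known, so every value below is a description and none is a test. The pairing of the accessions with the arm names came with the choice of members, since the deposited table lists accessions only. The study asked which hepatic miRNAs change when HNF4a, a nuclear receptor that maintains hepatocyte gene expression, is lost. The control group, called floxed below, is Hnf4af/f, in which the Hnf4a gene carries recombination sites and remains in place, and the liver-null group, called null below, is Hnf4aΔH, in which Hnf4a is deleted in the liver. All animals were 45-day-old males on a 129SV + C57BL/6 background, none with any other treatment named, and the liver was the tissue taken. The driver of the deletion, the number of animals behind each RNA sample and any pooling are not stated in the sources used here. Each genotype has 1 array, so there is no replicate error, and genotype, animal and hybridization cannot be told apart in any difference below.

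A miRNA hairpin is cut by Dicer into a duplex of a 5′ and a 3′ arm, and one arm is usually kept in the silencing complex while its partner is mostly degraded. For miR-21 the 5p arm is the usual guide strand. It pairs through its seed with target mRNAs such as that of PDCD4, an inhibitor of translation, and it is known in the liver for rising in regeneration, fibrosis and carcinoma. Its primary transcript is known to be driven by STAT3 and AP-1 among other factors.

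Both arms come from 1 hairpin, which is why the hairpin is printed first, with the 2 arms in capitals. RefSeq places it at chr11:86584067-86584158 on the minus strand of GRCm38.p6. This lies within the annotated extent of Vmp1, a gene for a membrane protein of autophagy, on the same strand and 209 bases inside its 3′ end. Vmp1 spans chr11:86583858-86683836, and the table used gives no exon bounds. In the 92-base hairpin the 5p arm takes bases 18 to 39 and the 3p arm bases 56 to 77.
Mir21a hairpin: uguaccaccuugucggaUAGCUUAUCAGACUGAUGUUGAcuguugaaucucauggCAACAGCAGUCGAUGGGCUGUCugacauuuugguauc

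The mature arms are printed next with the seed, bases 2 to 8, in capitals. The 5p arm lies at chr11:86584120-86584141 and the 3p arm at chr11:86584082-86584103.
miR-21a-5p: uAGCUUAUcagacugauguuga
miR-21a-3p: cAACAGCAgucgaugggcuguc

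The arms have different seeds, so they pair with different sites in mRNAs. A site for the 5p seed reads AUAAGCU and one for the 3p seed reads UGCUGUU. In the RefSeq table, which is not complete, miR-21c is the other mature miRNA with the 5p seed, and no other entry has the 3p seed. The other mouse miRNAs of the same name are shown next because a hybridization probe for miR-21a-5p could in principle meet them; the probe sequences are not stated in the sources used here.
miR-21b: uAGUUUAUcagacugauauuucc
miR-21c: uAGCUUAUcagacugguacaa

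Counted from the 5′ end without gaps, miR-21b has the base of miR-21a-5p at 18 of 22 positions and differs within the seed by C4U. By the same count miR-21c has 16 of 21 positions in common, with A16G as its first difference. Whether either contributed signal was not tested. The labels name Hy5 labelling with an LNA array kit, in which locked nucleic acids stiffen the probes, and each sample has 1 channel.

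Both arms had a value on both arrays, as did 258 of the 610 features; 311 features were missing on the floxed array and 270 on the null array. The lowest and highest intensities were 1.45 and 7459 on the floxed array, against 1.02 and 8046 on the null array. The array measures miRNAs, so the loss of Hnf4a mRNA was not checked here. The liver identity of the RNA was not checked either, since its marker miRNAs could not be matched by name.

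The guide arm, miR-21a-5p, was lower in the null liver. Its intensity was 270 on the floxed array and 128 on the null array. The null value was 2.11-fold lower. On the log2(intensity + 1) scale its level was 8.08 in the floxed liver and 7.01 in the null liver, a log2 difference of -1.07. In bulk liver RNA, fewer cells that hold a miRNA and less of it per cell cannot be told apart. As a share of all intensity on its array, miR-21a-5p held 0.936% in the floxed liver and 0.451% in the null liver.

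The partner arm, miR-21a-3p, was dim on both arrays and stood on the other side of equality. Its intensity was 3.31 in the floxed liver and 5.41 in the null liver. Here the null array was the higher one, by 1.63-fold on the plain intensities. The log2 levels were 2.11 and 2.68, and their difference was 0.57, short of the 2-fold mark of 1. The linear gap was 2.10 intensity units, against lowest values of 1.45 and 1.02 on the control and null arrays, while that of miR-21a-5p was -142. The 3p signal was 2.28 times the lowest value on the floxed array and 5.29 times the lowest on the null array. For miR-21a-5p the same multiples were 186 and 125.

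**Figure D1:**
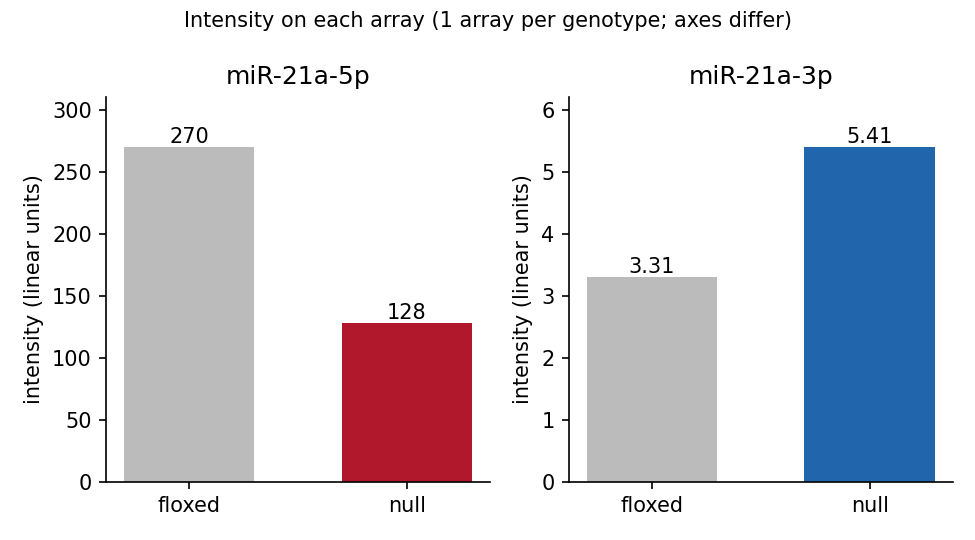
Intensity in linear units of miR-21a-5p (left) and miR-21a-3p (right) on the floxed and null arrays, 1 array each and no error bars, with a separate vertical axis for each arm. The 5p bar goes from 270 to 128 and the 3p bar from 3.31 to 5.41.

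Differences of the arms, unlike their levels, can be set side by side with a limit, since each is taken within 1 feature. The limit is that the log2(intensity + 1) scale shrinks the difference of the dim 3p arm more than that of the 5p arm. The log2 difference of miR-21a-5p minus that of miR-21a-3p was -1.65. It was -1.79 with nothing added to the intensities and -1.14 with 16 added in place of 1. Of the 2 arms, 1 (the 5p) was at least 2-fold lower in the null liver; it is one of 14 such features among the 258 shared, or 5.43%. Neither arm (0) was at least 2-fold higher, against 17 shared features, or 6.59%. With members this few, and selected with these values known, nothing is read from their count against that background. Across the shared features the null array's median log2 level exceeded the floxed one by 0.15. Relative to this shift the differences were -1.23 for the 5p arm and 0.42 for the 3p arm, and 7.75% of shared features were then at least 2-fold lower. The median of the feature differences was -0.06, opposite in sign to the shift of the medians.

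**Figure D2:**
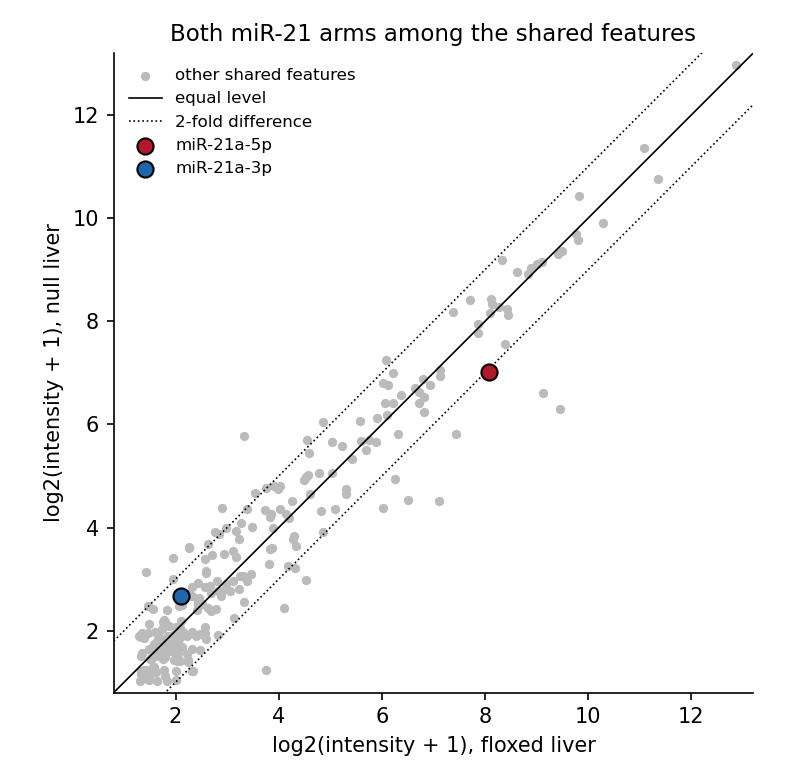
Level of each of the 258 shared features as log2(intensity + 1) in the floxed liver (horizontal) and in the null liver (vertical), with the line of equal level and dotted lines at a 2-fold difference. The 5p arm, at 8.08 and 7.01, lies just past the lower dotted line, and the 3p arm, at 2.11 and 2.68, lies above the line of equal level and within 2-fold.

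In the order of intensities, miR-21a-5p ranked 25 of the 299 features with a value on the floxed array and 29 of the 340 on the null array. In both livers it was thus well within the upper part of its array, with 8.03% and 8.24% of valued features brighter. The 3p arm ranked 171 of 299 in the floxed liver, where 56.9% of valued features were brighter. In the null liver it ranked 138 of 340, with 40.3% brighter. Among the 258 shared features alone it ranked 169 in the floxed liver and 138 in the null liver, below the middle on both arrays. Its intensity was 0.765 times the array median in the floxed liver and 1.69 times that in the null liver. The array medians themselves were 4.33 and 3.20, over different numbers of valued features. Ranks describe the brightness of probes and not the abundance of the miRNAs.

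In the order of differences, miR-21a-5p was 14th from the lowest of the 258 shared features. It was the one nearest to the 2-fold mark among those past it on the lower side. The next lower difference was -1.10 and the next higher -0.97. The 3p arm stood 41st from the highest, between neighbours at 0.56 and 0.58. These places depend on the processing, described below. With quantile normalization the 5p arm was 27th from the lowest and the 3p arm 37th from the highest. With nothing added to the intensities they were 21st and 38th, and with 16 added in place of 1 they were 8th and 62nd. Among the brightest quartile of the shared features by mean level (65), miR-21a-5p had the 8th lowest difference and was the last of 8 features that were at least 2-fold lower. The feature before it there was at -1.32 and the one after it at -0.82. The lowest in this quartile was -3.16 and the median 0.04.

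Each arm was then set beside the 50 shared features nearest to it in mean log2 level, a comparison chosen after the values had been seen. Around miR-21a-5p these neighbours had mean levels that correspond to intensities from 42.9 to 689. They had a median difference of 0.06, with 25th and 75th percentiles of -0.21 and 0.21. Of them, 6 were lower than miR-21a-5p and 44 higher. The member was 1.13 below the median of its neighbours. Around miR-21a-3p the mean levels correspond to intensities from 2.91 to 6.11. The median difference was 0.02, with percentiles of -0.31 and 0.37. Here 45 neighbours were lower than the member and 5 higher, and it was 0.55 above their median. Both arms lay outside the 25th to 75th percentile range of these neighbours, on opposite sides, as many features of any set do. Both lay within the full ranges, from -3.16 to 1.18 around miR-21a-5p and from -2.51 to 1.71 around miR-21a-3p. The spread of features is not a replicate error of either arm.

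**Figure D3:**
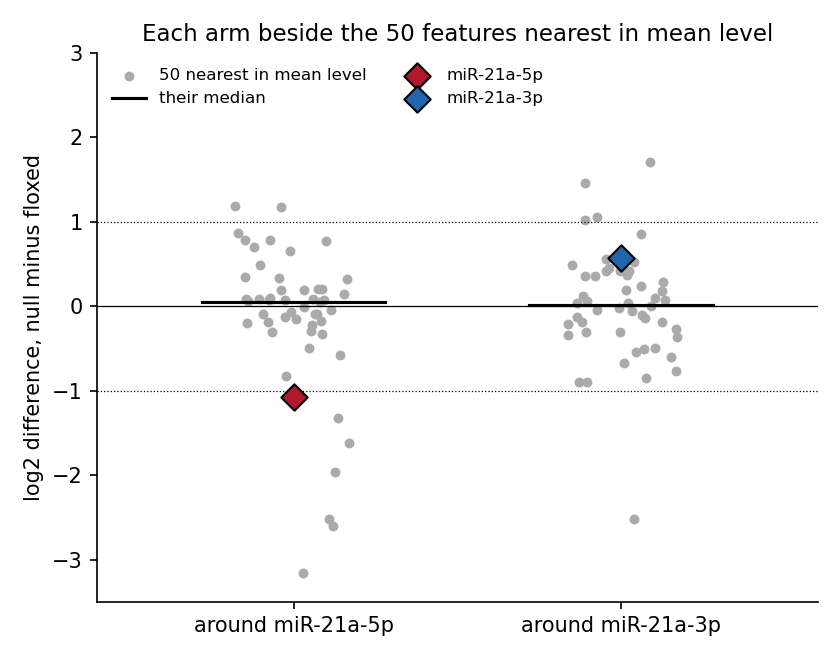
Log2 difference, null minus floxed, of each arm (diamonds) and of the 50 shared features nearest to it in mean level (grey points, spread sideways for display), with their median as a bar and dotted lines at 2-fold. The 5p diamond, at -1.07, has 6 points below it, and the 3p diamond, at 0.57, has 5 points above it.

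Both arms had the same direction under all 7 other settings tried, while the 5p difference crossed the 2-fold mark in 2 of them. These settings reuse the same 2 arrays, so a kept direction is no sign of repeatability. For most of them the direction was also fixed beforehand. The 2 other pseudocounts, the number added before the log, cannot turn a sign. Scaling to equal total intensity could not turn these differences either, as the totals were 28849 (floxed) and 28342 (null). Median and 75th-percentile centring each move every difference by the same constant. They took the 5p difference from -1.07 to -1.23 and -1.05, too small a step to turn either arm. Only quantile normalization and loess centring left the direction open. With quantile normalization, which gives each rank the same value on both arrays, the 5p difference was -0.71, a 1.63-fold lower level and within 2-fold. With a pseudocount of 16 it was -0.99, just inside the mark. In the other 5 settings it stayed at least 2-fold lower, between -1.23 and -1.05. The 3p difference ran from 0.15 with a pseudocount of 16 to 0.71 with none.

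**Figure D4:**
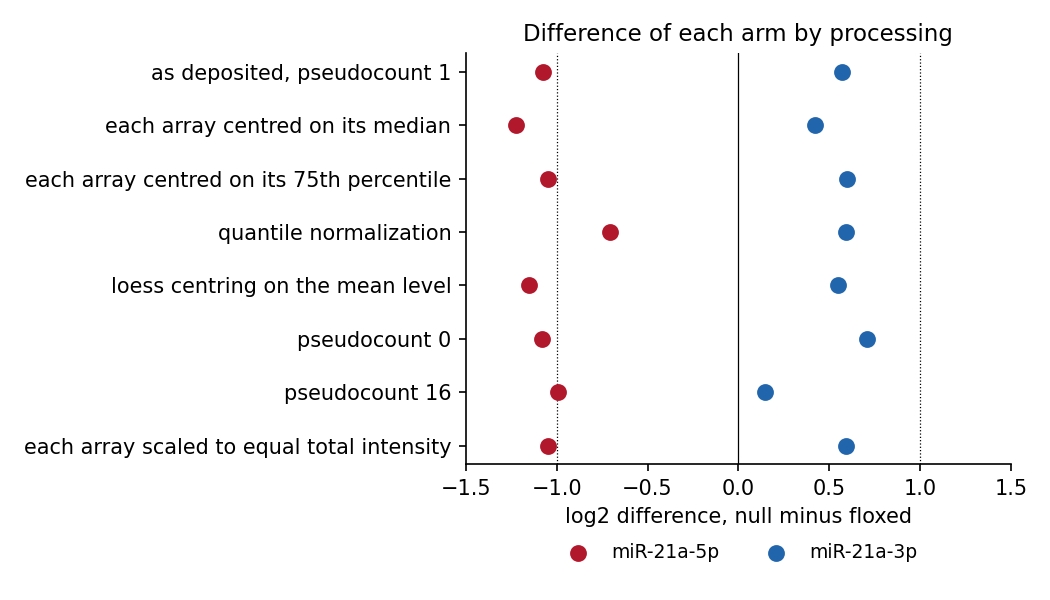
Log2 difference, null minus floxed, of miR-21a-5p and miR-21a-3p (horizontal) under each processing setting (vertical), with dotted lines at 2-fold. The 5p points lie at or beyond -1 except at -0.71 (quantile normalization) and -0.99 (pseudocount 16), and the 3p points all lie between 0.15 and 0.71.

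The features most like each arm were found by distance in the plane of the log2 levels on the 2 arrays. The nearest to miR-21a-5p was MIMAT0003892, at a distance of 0.64, with intensities of 334 in the floxed liver and 189 in the null liver. Its log2 difference was -0.82. The next 4 lay at distances from 0.80 to 0.97, with differences between -0.18 and 0.08. They were nearly equal on the 2 arrays, unlike miR-21a-5p, so their likeness to it was loose. A distance combines both arrays, so the 2-fold mark of 1 does not apply to it. The nearest to miR-21a-3p was MIMAT0000151, at a distance of 0.15, with intensities of 3.76 and 5.53 and a difference of 0.46. The next 4 were within 0.27 of the 3p arm and had differences from 0.36 to 0.52. Picking by closeness on both arrays fixes the direction of features this near to the 3p arm. It also fixes that of MIMAT0003892, the nearest to miR-21a-5p. These directions are therefore not a result. Likeness here rests on 2 arrays only.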

How the data were processed

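The authors deposited 1 table of array intensity values on a linear scale, with 1 column per sample. Its array software, background correction, treatment of dim spots and scaling are not stated in the sources used here, nor is the meaning of a missing value. RNA was labelled with Hy5, per the labels' protocols. Intensities were taken as log2(intensity + 1), and differences as null (Hnf4aΔH) minus floxed (Hnf4af/f) over features measured on both arrays, with no replacement of missing values. This scale understates changes of dim features. With 1 array per genotype no test was made, and precision is limited by the number of arrays. The members and lists were chosen with earlier results of these data known. The rule for named features covered the 2 members and the 5 features nearest to each by level; the text names the members and the nearest feature to each, and gives the other 4 as ranges. None (0) of the 620 accessions matched the reference tables, so the lists of injury and growth miRNAs, seed relatives and cell type markers, and the comparison with other hairpins' arms, could not be applied. Alternatives were median and 75th-percentile centring, quantile normalization, loess centring (span 0.4), pseudocounts of 0 and 16, thresholds of 1.5-fold and 4-fold and a filter on dim features. Equal total intensity was added after seeing the data. The counting code was tested on simulated data with 20 large changes. The software was numpy 2.4.6, pandas 2.3.3 and, for loess, statsmodels 0.14.6, under Python 3.11.15, with plots by matplotlib 3.10.9.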

Additional observations from a re-analysis of the deposited data

How the results depend on the processing

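No paired analysis was possible because there was a single array per genotype, and for the same reason no sample could be left out. The log2 differences of miR-21a-5p and miR-21a-3p were -1.23 and 0.42 after median centring, -1.05 and 0.60 after 75th-percentile centring, and -0.71 and 0.59 after quantile normalization. They were -1.15 and 0.55 with loess centring, -1.08 and 0.71 with no pseudocount, -0.99 and 0.15 with a pseudocount of 16, and -1.05 and 0.59 at equal total intensity. A pseudocount cannot turn a sign, so those 2 settings say nothing about direction. The difference between the arms was -1.30 with quantile normalization, -1.70 with loess centring, -1.79 with no pseudocount and -1.14 with a pseudocount of 16. The 3p arm ranked 169 on the floxed array among shared features alone. A 2-fold difference or more was seen for 31 shared features (14 lower, 17 higher). This became 9 (7 lower, 2 higher) with a pseudocount of 16, 77 (38 lower, 39 higher) at 1.5-fold and 5 (4 lower, 1 higher) at 4-fold. Median centring gave 9 higher, loess centring 10 higher, and no pseudocount 24 lower. The remaining 24 of 55 recomputed values stayed within set limits: differences by under 0.005, counts within 1.5 times and ranks not at all. Counts within that limit still moved, to 43 in all with no pseudocount and to 20 lower with median centring. The difference between the arms could not move with median or 75th-percentile centring, since a constant shared by both arms cancels. The filter on dim features kept only shared features at or above the median mean level. It gave 24 in all (11 lower, 13 higher), against 31 without the filter. The count stayed within its limit, but it came out of fewer features. The share at least 2-fold different was therefore higher among the brighter features than among all shared features.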
